A study of Rattus norvegicus with 9 samples.

Results

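10 genes of the response to low oxygen and of glycolysis were followed in RNA of the renal outer medulla: Slc2a1, Hk1, Hk2, Pfkfb3, Ldha, Pdk1, Egln3, Ankrd37, Bnip3 and Vegfa. They were taken by name from a table of 30315 loci, and all 10 were found, each at 1 locus. All 10 had a mean of at least 1 FPKM (fragments scaled to transcript length and to library size) and so belong to the 14338 loci that were tested. The tissue came from 9 individual MCW SS rats, a salt-sensitive strain, 3 in each of 3 groups, with 1 library a rat. The 0.4% salt rats ate a diet of 0.4% NaCl and were sampled after the same surgery as the others, before any GapmeR or high-salt diet. A GapmeR is an antisense oligonucleotide that leads RNase H to cut its target RNA. HS_SCR rats were given a scrambled one in the kidney at 4 mg/kg and ate 4% NaCl for 7 days. HS_DT rats, on that diet too, were given 2 mg/kg of a GapmeR against Dnmt3a, which methylates DNA, and 2 mg/kg of one against Tet3, which starts the removal of DNA methylation. HS_SCR thus differed from 0.4% salt in diet, oligonucleotide and days after surgery, which cannot be told apart, and the labels give no age or sex.

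Hypoxia-inducible factors (HIF) are transcription factors whose alpha subunits are hydroxylated by prolyl hydroxylases and degraded when oxygen is plentiful. When oxygen is scarce, the alpha subunits persist, pair with an ARNT protein and bind a short DNA motif near genes for glucose uptake, glycolysis, lactate formation, mitochondrial turnover and vessel growth. The renal outer medulla is poorly supplied with oxygen, and its thick ascending limbs use much of what they get for salt transport.

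Relative depth, estimated from the lowest values, ran from 0.761 to 1.37, and mitochondrially encoded transcripts took 20.6% to 31.9% of summed FPKM, with HS_SCR replicate 3 the lowest. That library stands apart from the others, so counts are also given without it. The targeted transcripts were not lowest in the libraries labelled HS_DT: Dnmt3a averaged 12.8 FPKM in 0.4% salt, 7.70 in HS_SCR and 9.999 in HS_DT, and Tet3 averaged 9.16, 6.24 and 8.03. Between HS_DT and HS_SCR, the log2 change was 0.37 (adjusted p = 0.303) for Dnmt3a and 0.34 (adjusted p = 0.271) for Tet3, so groups are named here by their labels.

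In mean FPKM over the 9 libraries, which is per transcript length and so allows genes to be compared, Ldha led with 292.5. Hk1 followed with 98.6, Vegfa with 57.1, Bnip3 with 50.4 and Slc2a1 with 48.8. Pfkfb3 averaged 25.5, Egln3 12.5, Hk2 9.18, Pdk1 5.74 and Ankrd37 5.19. The ranges of neighbouring genes in this order overlapped for Vegfa and Bnip3, for Bnip3 and Slc2a1, for Egln3 and Hk2, for Hk2 and Pdk1, and for Pdk1 and Ankrd37. The coefficient of variation over the 9 libraries ran from 14% for Hk2 to 52.8% for Pdk1.

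**Figure D1:**
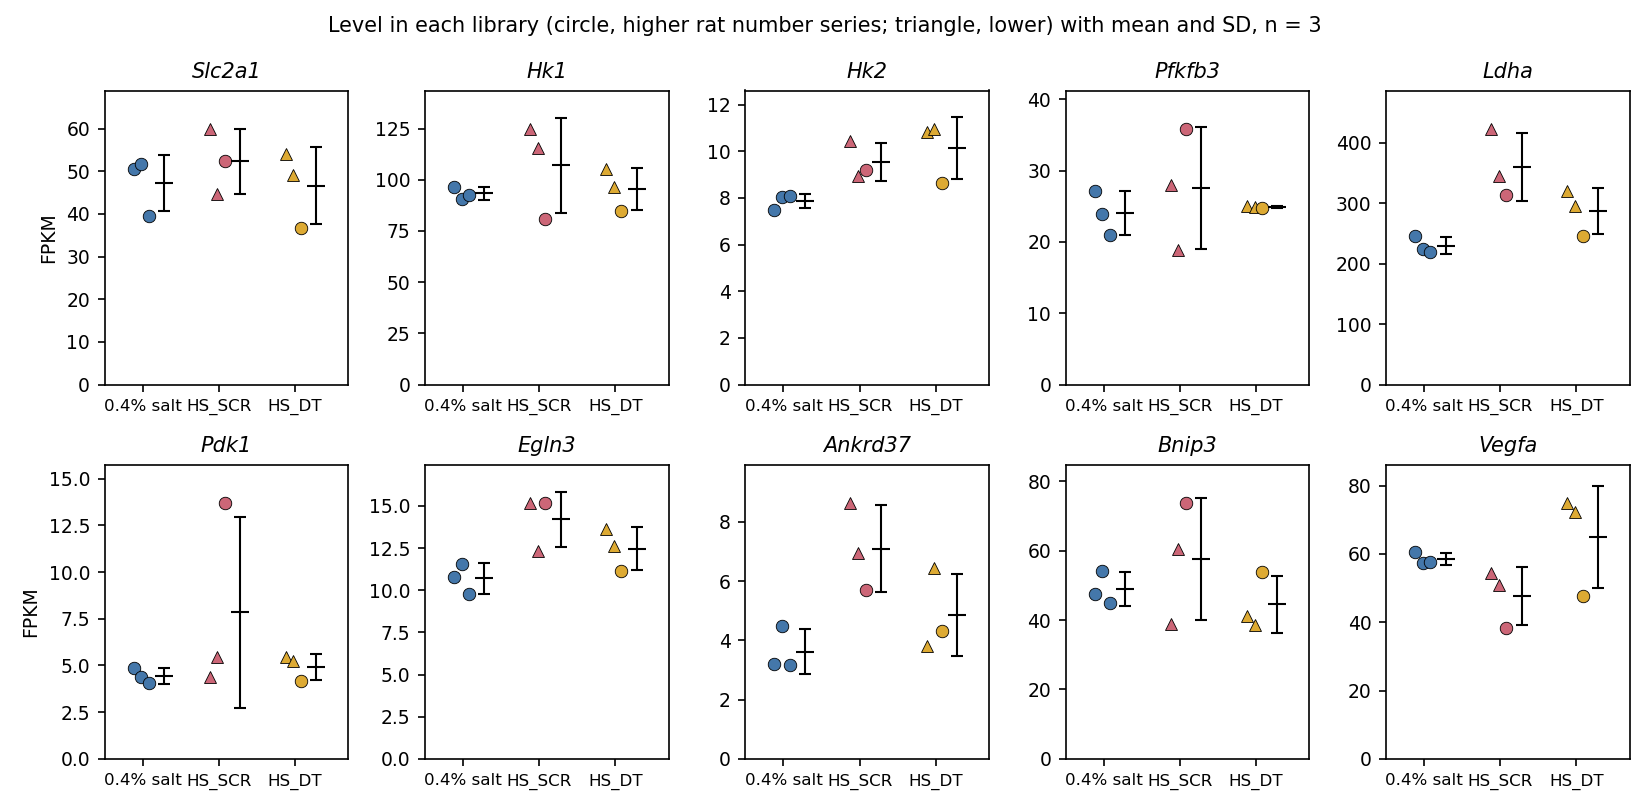
FPKM of each of the 10 genes in the 9 libraries (points; circles and triangles mark the higher and lower series of rat numbers), with the mean and SD of each group (n = 3). All HS_SCR points of Ldha, Ankrd37, Hk2 and Egln3 lie above all 0.4% salt points, those of Vegfa lie below them, and Pdk1 has 1 point far above the others, HS_SCR replicate 3 at 13.7 FPKM.

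Between HS_SCR and 0.4% salt, 2 of the 10 genes rose, Ldha by 0.64 ± 0.14 (SE) and Ankrd37 by 0.81 ± 0.20 on the log2(FPKM + 1) scale, and none fell (limma, adjusted p under 0.05). At an unadjusted p under 0.05 there were 3, with Egln3, beside 32% of all tested loci. Over all tested loci, 8.2% rose and 4.88% fell in this comparison. Of the 10 log2 changes, 9 were above 0, with a median of 0.22 against 0.02 over all tested loci. The FPKM ranges of the groups did not overlap for 4 of the 10 genes that were higher in HS_SCR, against 19.1% of all tested loci, and for 1 that was lower, Vegfa, against 14.5%. Without HS_SCR replicate 3, 3 genes rose, adding Hk1, while the share of all loci that rose went up to 20.5%. In this bulk tissue, fewer cells of a type and less RNA per cell cannot be told apart.

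**Figure D2:**
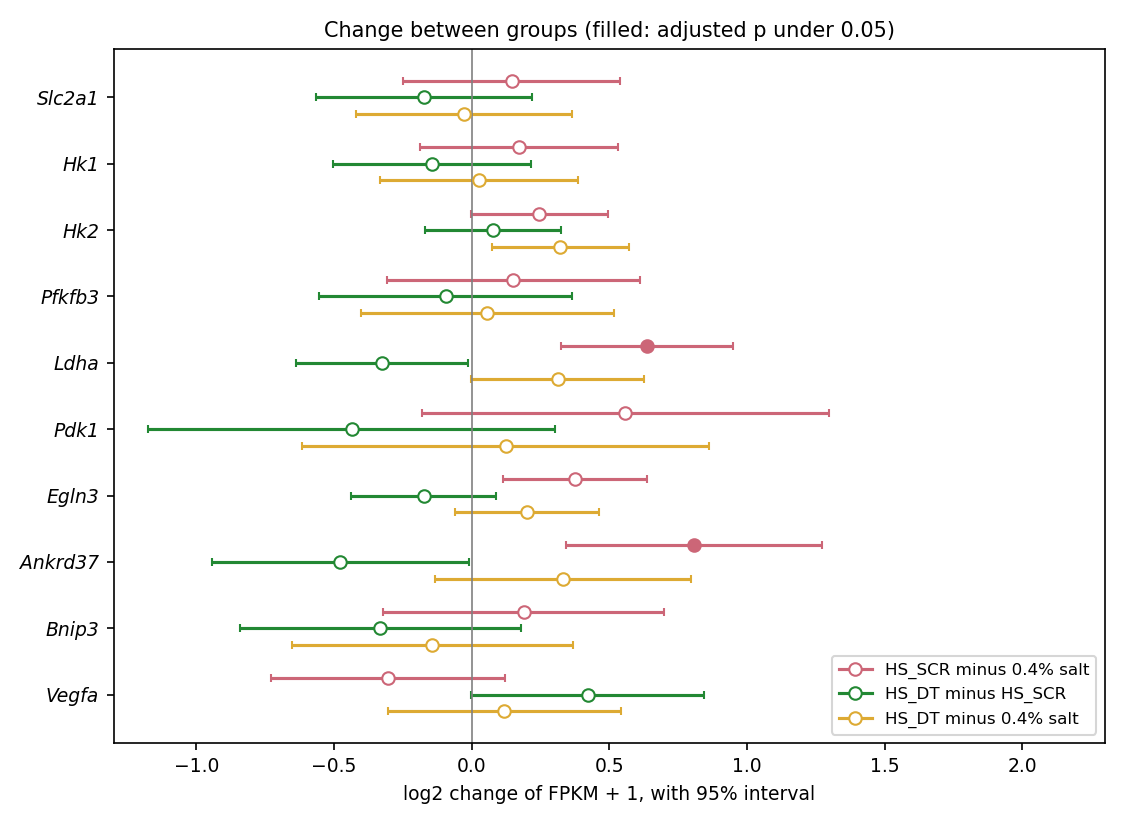
Log2 change of FPKM + 1 with its 95% interval for each gene in the 3 comparisons, filled where the adjusted p was under 0.05. Filled points are seen for Ldha (0.64) and Ankrd37 (0.81) in HS_SCR minus 0.4% salt, and in no other comparison.

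Glucose enters cells through Slc2a1, a facilitative glucose transporter (rn5 chr5:141964113-141992639). Its level was 50.4, 51.7 and 39.6 FPKM in the 0.4% salt libraries, 59.9, 44.7 and 52.4 in HS_SCR, and in HS_DT it was 54.0, 49.2 and 36.6. The groups overlapped, and HS_SCR minus 0.4% salt was 0.15 ± 0.17 in log2 change (95% interval -0.25 to 0.54, adjusted p = 0.589).

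Hexokinases trap glucose as its phosphate. Hk1, the widely expressed form (chr20:33703466-33770509), gave 96.5, 90.6 and 92.8 FPKM in 0.4% salt, 125, 116 and 80.7 in HS_SCR, and in HS_DT it was 105, 96.3 and 84.9. The 2 highest libraries and the lowest were all HS_SCR, and the log2 change from 0.4% salt was 0.17 ± 0.16 (adjusted p = 0.480). Without HS_SCR replicate 3, the lowest library, it was 0.36 (adjusted p = 0.0222). That fit sets lower against higher rat numbers, and with the series of rat numbers as a factor the change was -0.10. Hk2, the inducible form that binds mitochondria and is a HIF target (chr4:178237864-178305356), stood at 7.51, 8.02 and 8.07 FPKM in 0.4% salt, 10.5, 8.94 and 9.20 in HS_SCR, and in HS_DT it was 10.8, 11 and 8.62. Every library on high salt lay above every 0.4% salt library, but neither log2 change passed the test: 0.25 ± 0.11 for HS_SCR (adjusted p = 0.159) and 0.32 ± 0.11 for HS_DT (adjusted p = 0.515). Hk2 made up 7.22% to 8.13% of the summed FPKM of Hk1 and Hk2 in 0.4% salt, 7.18% to 10.2% in HS_SCR and 9.22% to 10.2% in HS_DT.

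Pfkfb3 (chr17:72335011-72416542) makes the fructose bisphosphate that activates phosphofructokinase. It measured 27.2, 24 and 20.9 FPKM in 0.4% salt, 27.9, 18.9 and 35.9 in HS_SCR, and in HS_DT it was 25.1, 24.9 and 24.8. HS_SCR held both its highest and its lowest library, whereas the SD in HS_DT was 0.149 FPKM against 8.51 in HS_SCR. The log2 change between HS_SCR and 0.4% salt was 0.15 ± 0.20 (adjusted p = 0.630).

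Ldha, the lactate dehydrogenase subunit that favours turning pyruvate into lactate (chr1:103975206-103984632), was at 246, 225 and 219 FPKM in 0.4% salt, 423, 345 and 314 in HS_SCR, and in HS_DT it was 321, 295 and 245. All 3 HS_SCR libraries lay above all 0.4% salt libraries, and HS_DT overlapped with both. The group means were 230 ± 14.3, 361 ± 56.3 and 287 ± 38.4 FPKM (SD, n = 3). Ldha rose by 0.64 ± 0.14 in log2 change between 0.4% salt and HS_SCR (95% interval 0.33 to 0.95, adjusted p = 0.0225), a 1.56-fold higher level of FPKM + 1. The exact two-sided permutation test of these 3 against 3 libraries gave p = 0.1, the smallest it can give. Over 18 alternative settings the log2 change lay between 0.34 and 0.73 and was called in 12. The call was lost when any 0.4% salt replicate (adjusted p = 0.0623, 0.0869 and 0.0674 without replicates 1, 2 and 3) or HS_SCR replicate 2 (0.0530) was left out. Ldha has near-identical processed copies in rodent genomes, and how reads shared with them were counted is not given in the sources used here.

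The sister subunit Ldhb, which favours the reverse step, averaged 448 FPKM in 0.4% salt and 329 in HS_SCR, and its log2 change of -0.47 ± 0.20 did not pass the test (adjusted p = 0.143). Ldha made up 33.4%, 32.8% and 35.8% of the FPKM of both subunits in 0.4% salt, 52.9%, 48.1% and 56.7% in HS_SCR, and in HS_DT it was 41.2%, 42.8% and 42.7%. The 3 groups did not overlap in this share, with HS_DT between the other two. The share was chosen after its values were seen and is given as a description.

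Pdk1 (chr3:65019115-65049742) phosphorylates and so inhibits pyruvate dehydrogenase, which sends pyruvate into mitochondrial oxidation. Its level was 4.86, 4.38 and 4.06 FPKM in 0.4% salt, 4.40, 5.42 and 13.7 in HS_SCR, and in HS_DT it was 5.43, 5.24 and 4.14. Apart from HS_SCR replicate 3, the highest value was 5.43 FPKM. Its log2 change of 0.56 ± 0.32 between HS_SCR and 0.4% salt did not pass (adjusted p = 0.267) and was 0.12 without that library.

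Egln3, a prolyl hydroxylase that marks HIF alpha subunits for degradation and is itself a HIF target (chr6:84592883-84618360), had 10.8, 11.6 and 9.77 FPKM in 0.4% salt, 15.2, 12.3 and 15.2 in HS_SCR, and in HS_DT it was 13.7, 12.6 and 11.1. Each HS_SCR library exceeded each 0.4% salt library. The log2 change of 0.38 ± 0.11 missed the threshold (95% interval 0.11 to 0.64, adjusted p = 0.0632) and was called in 0 of 18 alternatives, where its adjusted p ran from 0.0527 to 0.755.

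Ankrd37, a small ankyrin repeat protein and HIF target, showed 3.19, 4.48 and 3.15 FPKM in 0.4% salt, 8.63, 6.95 and 5.70 in HS_SCR, and in HS_DT it was 3.81, 6.44 and 4.31. HS_SCR lay wholly above 0.4% salt, and HS_DT replicate 2 fell within the HS_SCR range. Group means were 3.61 ± 0.759, 7.09 ± 1.47 and 4.86 ± 1.40 FPKM (SD, n = 3). Ankrd37 rose by 0.81 ± 0.20 in log2 change (95% interval 0.34 to 1.27, adjusted p = 0.0368), and the exact two-sided permutation test gave p = 0.1, the smallest it can give. The log2 change lay between 0.62 and 0.95 over the 18 alternatives and was called in 9. Leaving out any 1 of 6 libraries ended the call: 0.4% salt replicates 1, 2 and 3 (adjusted p = 0.120, 0.0683 and 0.101), HS_SCR replicates 1 and 2 (0.0853 and 0.0889) and HS_DT replicate 3 (0.0522).

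The table gives Ankrd37 and Ufsp2, a neighbouring gene for a protease, the same position (chr16:49189392-49211695), so reads of the overlapping genes may not be told apart, and the strand used in counting is not given in the sources used here. Ufsp2 averaged 22.6, 25.4 and 21.6 FPKM in 0.4% salt, HS_SCR and HS_DT. Its log2 change between HS_SCR and 0.4% salt was 0.15 ± 0.11 (adjusted p = 0.386).

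Bnip3 (chr1:218174696-218191883) is a mitochondrial outer membrane protein that serves mitophagy and cell death. Its 0.4% salt libraries were at 47.6, 54.3 and 44.9 FPKM, HS_SCR at 38.8, 60.4 and 73.7 and HS_DT at 41.1, 38.5 and 54.0. The HS_SCR libraries spanned most of the range of all 9, and the log2 change of 0.19 ± 0.22 (adjusted p = 0.586) was -0.01 without HS_SCR replicate 3.

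Vegfa, the vascular endothelial growth factor that acts on receptors of nearby endothelium (chr9:16232414-16247663), stood at 60.5, 57.5 and 57.7 FPKM in 0.4% salt, 54.3, 50.8 and 38.2 in HS_SCR, and in HS_DT it was 74.9, 72.2 and 47.6. All HS_SCR libraries lay below all 0.4% salt libraries, while 2 of the 3 HS_DT libraries lay above every other library. Neither log2 change passed the test, at -0.30 ± 0.19 for HS_SCR minus 0.4% salt (adjusted p = 0.291) and 0.42 ± 0.19 for HS_DT minus HS_SCR (95% interval -0.00 to 0.85, adjusted p = 0.264).

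Rat numbers in the library titles form a lower and a higher series, with no reason given in the labels. The lower series holds replicates 1 and 2 of HS_SCR and of HS_DT, and the higher holds all 0.4% salt libraries and replicate 3 of the other groups. Without HS_SCR replicate 3, HS_SCR minus 0.4% salt therefore sets the lower series against the higher, for these genes and for the counts of all lists. In Vegfa the higher-series library was the lowest of its group in both HS_SCR and HS_DT. With the series as a factor in the fit, Vegfa passed the test in both comparisons, at -0.66 for HS_SCR minus 0.4% salt (adjusted p = 0.0132) and 0.42 for HS_DT minus HS_SCR (adjusted p = 0.0410), where 5.88% of all loci rose and 3.32% fell in the first and 0.879% rose and 2.06% fell in the second. Within the lower series, the HS_DT minus HS_SCR difference of Vegfa was 0.477 in mean log2(FPKM + 1) with 2 libraries each, and within the higher it was 0.311 with 1 each. HS_SCR minus 0.4% salt for Vegfa was -0.603 within the higher series, where HS_SCR has only replicate 3, against 3 libraries. The lower series holds no 0.4% salt library. With the factor, that comparison therefore rests on HS_SCR replicate 3 and on the series difference within HS_SCR and HS_DT. For Ldha, the factor left a log2 change of 0.44 between HS_SCR and 0.4% salt (adjusted p = 0.0585), and within the higher series, with 1 against 3 libraries, the difference was 0.452. Ankrd37 had 0.62 with the factor (adjusted p = 0.135) and 0.552 within the higher series. For Slc2a1 and Hk1, the factor turned the sign of HS_SCR minus 0.4% salt, to -0.01 and -0.10.

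Stretches just upstream of the start sites are shown for the 2 genes that rose and for Vegfa, whose values lay in the opposite direction. The sequences are the 250 bases before the RefSeq start site on the plus strand of GRCr8, a later build than that of the FPKM table, at chr1:106507842-106508091 for Ldha, chr16:53001257-53001506 for Ankrd37 and chr9:22452604-22452853 for Vegfa. Capitals mark the core of the HIF motif, ACGTG or GCGTG on either strand. CACGTG, a palindrome that other factors also bind, counts as a match on each strand.
Ldha: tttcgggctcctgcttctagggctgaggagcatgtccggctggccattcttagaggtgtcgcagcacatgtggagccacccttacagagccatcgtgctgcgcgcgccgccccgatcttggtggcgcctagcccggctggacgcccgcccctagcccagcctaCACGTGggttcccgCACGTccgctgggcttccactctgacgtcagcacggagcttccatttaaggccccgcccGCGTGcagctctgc
Ankrd37: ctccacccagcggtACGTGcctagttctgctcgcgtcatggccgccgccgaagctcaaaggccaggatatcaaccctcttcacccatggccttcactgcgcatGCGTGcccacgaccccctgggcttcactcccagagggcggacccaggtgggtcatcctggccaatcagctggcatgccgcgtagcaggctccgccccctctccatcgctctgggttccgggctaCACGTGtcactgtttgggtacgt
Vegfa: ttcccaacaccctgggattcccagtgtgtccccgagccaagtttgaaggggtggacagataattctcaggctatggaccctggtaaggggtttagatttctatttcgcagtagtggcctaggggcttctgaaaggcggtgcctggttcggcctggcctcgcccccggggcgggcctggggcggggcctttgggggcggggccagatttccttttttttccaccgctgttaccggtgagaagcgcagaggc

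Ldha and Ankrd37 each held 4 matches, among them CACGTG, which began 87 bases before the start in Ldha and 23 in Ankrd37. Slc2a1 and Bnip3 also held 4, Pfkfb3 and Pdk1 held 2, and Vegfa, Hk1, Hk2 and Egln3 held 0 in this window. At least 1 match was present in 6 of the 10 genes, against 54.7% of the 9858 promoters of tested genes and 36.7% of all 33469 promoters in the table. CACGTG was present in 4 of the 10 (Ldha, Ankrd37, Pfkfb3 and Bnip3), against 7.93% of tested genes and 5.59% of all. GC content was 66.4% in Ldha, 64.4% in Ankrd37 and 60.4% in Vegfa, with a median of 60% over promoters of tested genes. It was 48.8% in Hk1, 49.6% in Hk2 and 46.8% in Egln3. Only 1 start site a gene was searched, so other start sites may hold matches. Slc2a1 and Bnip3, with as many matches as the 2 genes that rose, had log2 changes of 0.15 and 0.19 that did not pass.

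Between HS_DT and HS_SCR, 0 of the 10 genes were called by limma, in a comparison where 0.00697% of all tested loci, a single locus, fell and none rose. At an unadjusted p under 0.05, 2 of the 10 were lower in HS_DT, Ldha at -0.33 ± 0.14 (adjusted p = 0.245) and Ankrd37 at -0.48 ± 0.20 (adjusted p = 0.252), beside 19.1% of all tested loci in either direction. The median log2 change of the 10 was -0.17, against -0.00 over all loci, with 2 above 0, Vegfa and Hk2. No gene had groups that did not overlap, beside 9.1% of all loci that were higher in HS_DT in this way and 12.5% that were lower. In 6 of the 10 genes the HS_DT mean lay between the means of 0.4% salt and HS_SCR, and both comparisons share the HS_SCR libraries. Leaving out HS_SCR replicate 3 brought no gene of the 10 past the threshold, although 6.76% of all loci then rose and 9.29% fell.

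Between HS_DT and 0.4% salt, limma again called 0 of the 10 genes, as it did 0 of all tested loci. Hk2 alone had an unadjusted p under 0.05, beside 7.49% of all tested loci. It also was the only gene with groups that did not overlap, against 14.2% of all loci that were higher in HS_DT in this way and 9.64% that were lower. The median log2 change was 0.12 against 0.01 over all loci, and 8 of 10 were above 0. Without HS_SCR replicate 3, 0.0698% of all loci rose and none of the 10 did. Ldha stood at 0.31 ± 0.14 (adjusted p = 0.664) and Ankrd37 at 0.33 ± 0.20 (adjusted p = 0.763).

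Around these genes, the wider pathway lists gave the following counts between HS_SCR and 0.4% salt. Of 25 tested genes of glycolysis, glucose entry and lactate export, 6 rose and 1 fell, and the median log2 change was 0.17. The counts of this and the other lists stand beside 8.2% of all tested loci that rose and 4.88% that fell. Slc16a3, the transporter that exports lactate, rose from 2.6 ± 0.291 to 6.37 ± 2.05 FPKM (SD, n = 3; log2 change 1.00 ± 0.19, adjusted p = 0.0163). Aldoc, an aldolase, rose by 0.81 ± 0.15 in log2 change (adjusted p = 0.0150) and Eno2, an enolase, by 0.78 ± 0.15 (adjusted p = 0.0163). Ldha came next, followed by Hk3, a hexokinase of myeloid cells (0.61), and Pfkl, the liver form of phosphofructokinase (0.47). Pfkm, the muscle form of the same enzyme, fell by 0.39. The abundant middle enzymes did not pass, with log2 changes of 0.29 for Gapdh (adjusted p = 0.0746) and 0.06 for Pgk1. The loci given for Slc16a3 (chr10:109599736-109846837) and Aldoc (chr10:65993762-66166766) are wider than those of all 10 genes, at most 81531 bases. Whether they take in reads of neighbouring genes was not tested. The count of glycolysis genes that rose was 12 without HS_SCR replicate 3, where 20.5% of all loci rose. It was 1, 0 and 3 without 0.4% salt replicates 1, 2 and 3, where 2.29%, 1.81% and 4.36% of all loci rose, and 3 without HS_SCR replicate 2, where 3.93% did.

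**Figure D3:**
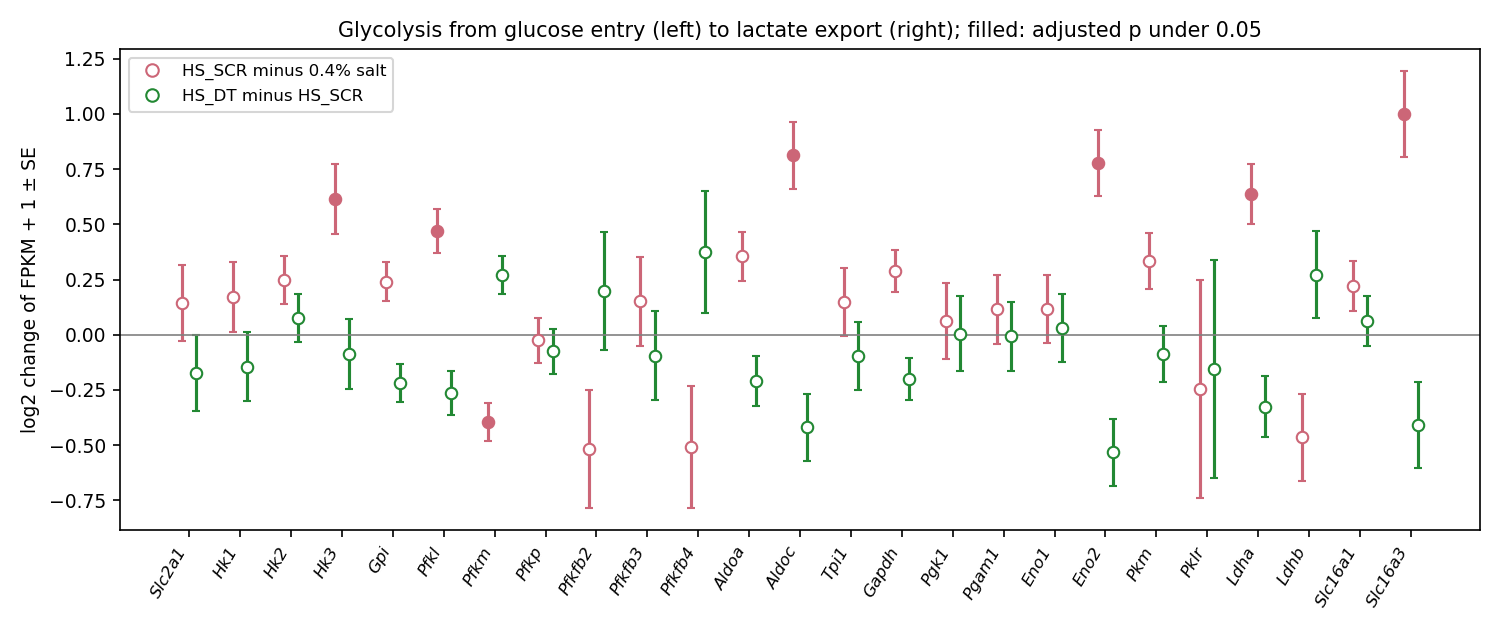
Log2 change of FPKM + 1 with its SE for 25 genes ordered from glucose entry to lactate export, for HS_SCR minus 0.4% salt (red) and HS_DT minus HS_SCR (green), filled where the adjusted p was under 0.05. Of the red points, 6 above 0 and 1 below are filled, and no green point is.

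Gluconeogenesis, the reverse pathway of the proximal tubule, had 0 of 9 genes called, with a median log2 change of -0.71. At an unadjusted p under 0.05, 4 of its genes were lower, beside 32% of all tested loci in either direction. Pc, pyruvate carboxylase, had -0.82 ± 0.24 (adjusted p = 0.0549), and Fbp1, fructose bisphosphatase, had -2.90 ± 0.85 (adjusted p = 0.0575). Of 14 pyruvate dehydrogenase genes, 2 fell and none rose (median log2 change -0.25). Dlat, a core subunit of the complex, fell by 0.75 on the log2 scale, from 41.1 ± 5.23 to 23.9 ± 1.33 FPKM (adjusted p = 0.00668). Pdp2, a phosphatase that reactivates the complex and so opposes Pdk1, fell by 1.03 (adjusted p = 0.0186). Pdk2, Pdk3 and Pdk4, the other kinases, had log2 changes of -0.21, -0.22 and 0.34 that did not pass.

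Of 10 glucose transporters, 2 fell and none rose, with a median of -0.43: Slc2a4, the insulin-responsive transporter (-1.02, adjusted p = 0.0357), and Slc2a13, which carries myo-inositol (-0.99, adjusted p = 0.00875). Among 17 HIF pathway proteins, 1 fell and 16 did not pass. The gene that fell was Arnt2, a partner of HIF alpha subunits, from 23.5 ± 0.858 to 14.4 ± 2.66 FPKM (log2 change -0.68 ± 0.12, adjusted p = 0.0133). Arnt, another such partner, averaged 20.3 and 18.7 FPKM in 0.4% salt and HS_SCR, with overlapping ranges (log2 change -0.12 ± 0.10, adjusted p = 0.417). The transcripts of the alpha subunits, Hif1a and Epas1, had log2 changes of -0.00 (adjusted p = 0.988) and -0.20 (adjusted p = 0.212), and Egln1, the main oxygen-sensing hydroxylase, had 0.14 (adjusted p = 0.458).

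Other HIF targets numbered 41, of which 9 rose and none fell (median log2 change 0.26). Igfbp3, a carrier protein of insulin-like growth factors, averaged 10.8 ± 1.97 FPKM in 0.4% salt and 27.8 ± 3.05 in HS_SCR and rose by 1.29 ± 0.13 in log2 change (adjusted p = 0.00566). Maff, a small basic leucine zipper factor, rose by 1.14, the chemokine receptor Cxcr4 by 1.02 and Angptl4, an inhibitor of lipoprotein lipase, by 0.95, although the ranges of Angptl4 overlapped. Ddit4, Edn1, Tf, Kdm3a and Bnip3l were the others that rose. Bnip3l, the close relative of Bnip3, moved from 34.9 ± 1.87 to 45.4 ± 1.11 FPKM. Without HS_SCR replicate 3, 13 of these targets rose and 5 fell, beside 20.5% and 15.7% of all loci. Without 0.4% salt replicates 1, 2 and 3, 2, 2 and 4 rose, beside 2.29%, 1.81% and 4.36% of all loci. The count was 6 without HS_SCR replicate 1 or HS_DT replicate 2, and 5 without HS_SCR replicate 2, beside 6.91%, 5.05% and 3.93% of all loci.

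Of 11 genes of the BNIP family and mitophagy, Sqstm1, an autophagy receptor, and Bnip3l rose, Bcl2, which restrains cell death, fell, and 8 did not pass. Of 8 VEGF ligands and receptors none was called by limma, and none had an unadjusted p under 0.05, beside 32% of all tested loci. The endothelial receptors Flt1 and Kdr had log2 changes of 0.10 and -0.13. In HS_DT minus HS_SCR, limma called no gene of any of these lists. The smallest adjusted p belonged to Igfbp3 (-0.76 ± 0.13, adjusted p = 0.0644). At an unadjusted p under 0.05 there were 10 of the 41 other HIF targets (9 lower in HS_DT, 1 higher) and 6 of the 25 glycolysis genes (5 lower, 1 higher), beside 19.1% of all tested loci.

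**Figure D4:**
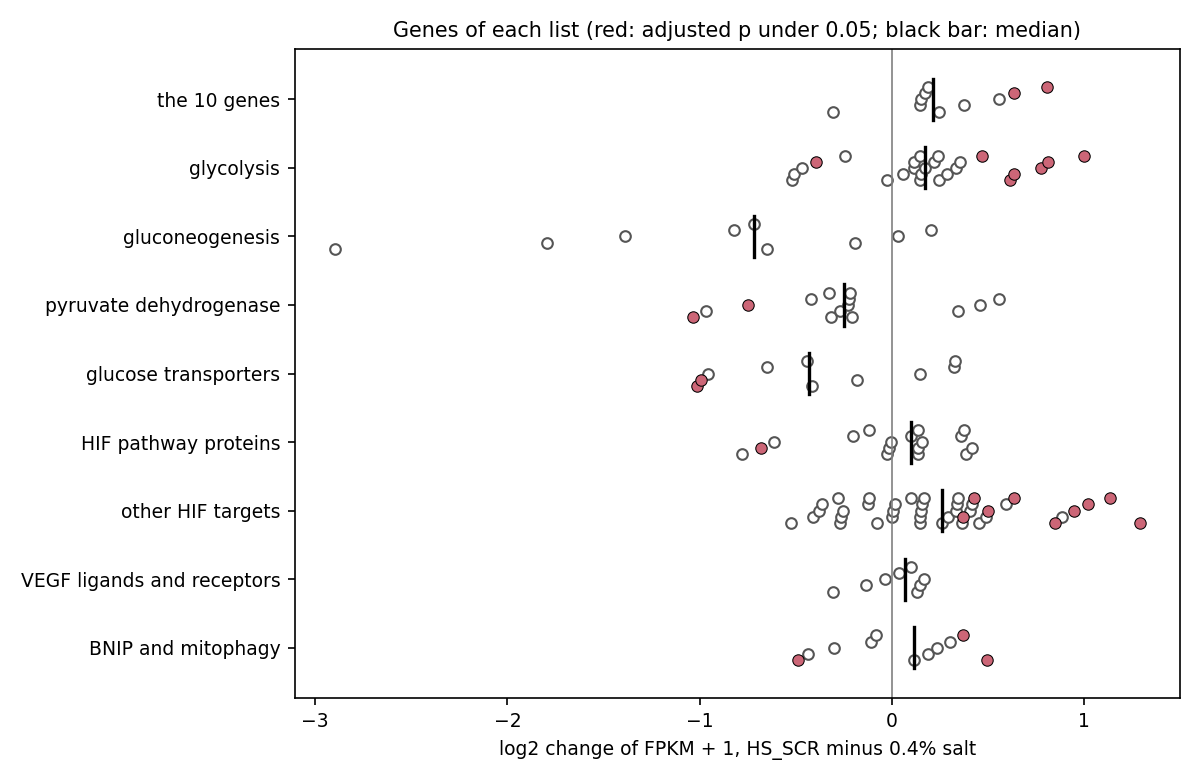
Log2 change of FPKM + 1 between HS_SCR and 0.4% salt for each gene of 9 lists (points; red where the adjusted p was under 0.05), with the median of each list as a bar. Red points of the other HIF targets all lie above 0, those of pyruvate dehydrogenase and of the glucose transporters lie below 0, and the lowest medians are those of gluconeogenesis (-0.71) and the glucose transporters (-0.43).

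Markers of several cell types also differed between HS_SCR and 0.4% salt, and their part in the results was not tested beyond the values here. The summed FPKM of the proximal tubule markers was 2935 to 6835 in 0.4% salt, 238 to 1976 in HS_SCR and 1319 to 4530 in HS_DT, and 6 of its 17 tested markers fell. Thick ascending limb markers summed to 2954 to 4575, 1395 to 3367 and 2639 to 3603 FPKM, with 4 of 12 lower and 1 higher by the test. Macrophage markers summed to 1484 to 1708, 2702 to 3694 and 2451 to 2749 FPKM, and 7 of 11 rose. Neutrophil markers summed to 11.4 to 14.1, 86.0 to 458 and 36.5 to 71.2 FPKM, and 2 of 4 tested rose, with the granule genes Mpo, Elane, Camp and Ngp under 1 FPKM in every library. Erythroid markers summed to 585 to 856, 1410 to 8799 and 1901 to 2601 FPKM, and 4 of 5 tested rose, with Epb42 and Klf1 under 1 FPKM in every library. Slc4a1 is in both the erythroid and the collecting duct list. The collecting duct and endothelial sums overlapped between all groups. Of 13 collecting duct markers, 0 were called by limma. At an unadjusted p under 0.05 there were 4, all higher, beside 32% of all tested loci in either direction. Of 12 endothelial markers, 2 rose. When the mean log2 level of the proximal tubule markers was added to the fit, Ldha had a log2 change of 0.34 (adjusted p = 0.492) and Ankrd37 of 0.84 (adjusted p = 0.341). That fit called 0 of 14338 loci by limma, with 2037 at an unadjusted p under 0.05. The mean log2 level of these markers ran from 5.008 to 6.381 in 0.4% salt and from 2.295 to 4.178 in HS_SCR. As these ranges do not overlap, the fit separates the marker level from the group poorly.

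Across the 9 libraries, the 45 pairs of the 10 genes had a Pearson r over 0.5 in 15 and under -0.5 in 3. Ldha went with Egln3 at r = 0.852 and with Ankrd37 at r = 0.814. Vegfa ran against Bnip3 at r = -0.832 and against Pdk1 at r = -0.555, and the third negative pair was Hk1 and Bnip3 at r = -0.512. Of 9273 loci searched, those most like Ldha were Cnbp (r = 0.989), Vta1 and Psmc3, those most like Ankrd37 were TMEM11 (r = 0.967), GLRX2 and Lrrc47, and those most like Vegfa were Smtn (r = 0.955), Slc25a26 and Vstm4. Slc2a1 was nearest to Ubl3 (r = 0.952), Hk1 to Aurkaip1 (r = 0.988), Hk2 to Ext2 (r = 0.981) and Pfkfb3 to Gcnt1 (r = 0.935). Bnip3 was nearest to Os9 (r = 0.966), Egln3 to Rela (r = 0.938) and Pdk1 to Irf2bpl (r = 0.981). These values describe 9 libraries that share the group differences, depth and tissue make-up.

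**Figure D5:**
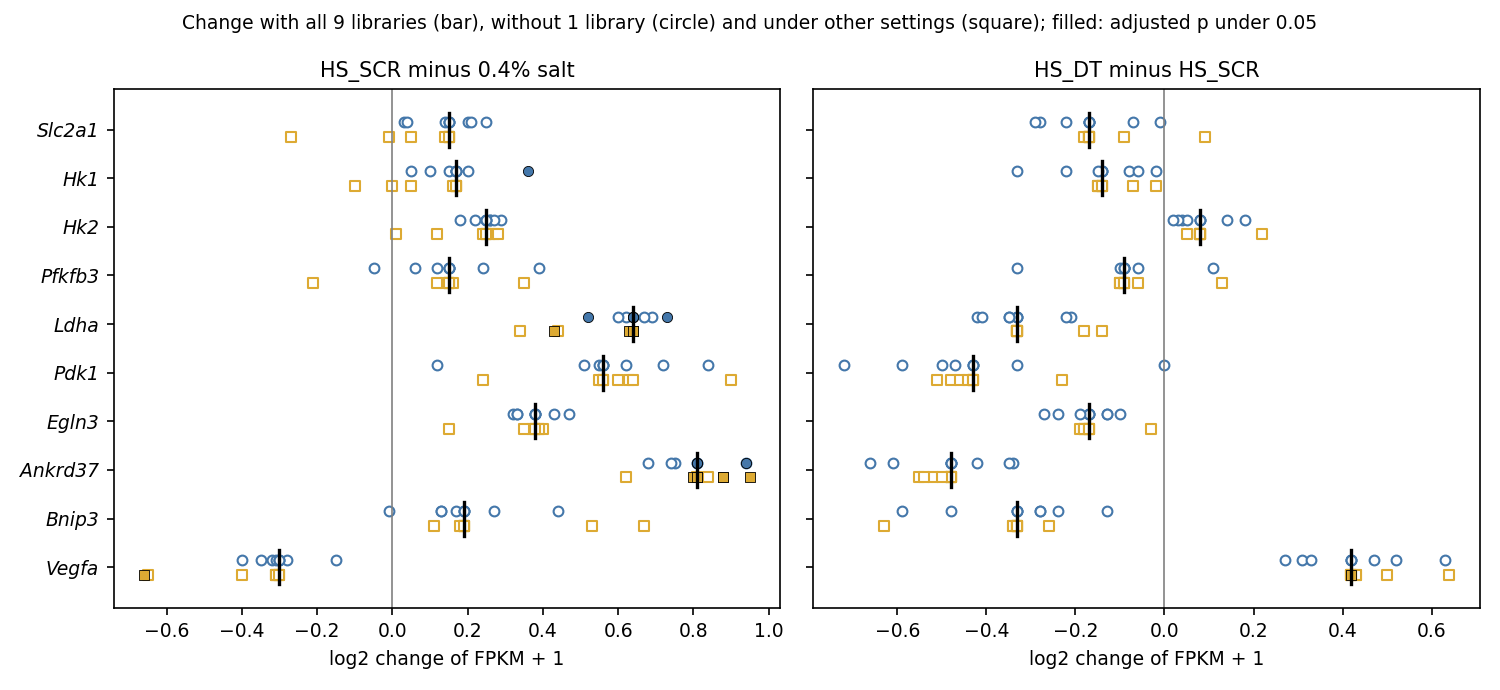
Log2 change of FPKM + 1 of each gene with all libraries (bar), without 1 library (circles) and under 9 other settings (squares), filled where the adjusted p was under 0.05. Ldha, Ankrd37, Hk2, Egln3 and Pdk1 keep values above 0 in HS_SCR minus 0.4% salt and Vegfa keeps values below 0, while points of Slc2a1, Hk1, Pfkfb3 and Bnip3 lie on both sides of 0.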

How the data were processed

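RNA of the renal outer medulla was extracted with Trizol and libraries were made on a NeoPrep system, per the labels' protocols. The authors deposited 1 table of FPKM values with 30315 loci. Per the submitters' processing notes, Cufflinks 2.2.1, Trim Galore 0.2.5 and build rn5 were used. Not given in the sources used here are the aligner, the annotation, the strand setting and whether libraries were scaled to each other. Libraries were matched to columns by the rat number in their titles, and 1 further column, which repeats HS_DT replicate 3 at all 30315 loci, was not used.

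Read counts are not given, so the absolute depth is unknown and counting error could not be computed. Relative depth comes from loci averaging under 0.15 FPKM, where 81.0% to 85.9% of ratios between libraries lay within 2% of a ratio of whole numbers up to 6.

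The 14338 loci that averaged at least 1 FPKM over 9 libraries were put on the log2(FPKM + 1) scale and fitted once, all 3 groups together, by limma 3.58.1 (trend) in R 4.3.3. This left 6 residual degrees of freedom, or 8.54 with moderation. A fold change on this scale understates the change of low genes. All tests are two-sided. Benjamini-Hochberg adjustment ran over every tested locus, and an adjusted p under 0.05 is called rose or fell. Intervals are 95% intervals of that fit. Each named gene also had an exact permutation test of 3 against 3 libraries, whose smallest p is 0.1. The fit was tested on simulated data.

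The 10 genes and all lists were chosen with earlier results of these data known. Named besides the 10 are, from each list and comparison, up to 4 called genes with the largest change, or the 2 with the smallest p where none was called, and for each of the 10 the genes with the highest Pearson r over 9 libraries at a mean of at least 5 FPKM. Further genes (Ldhb, Hk3, Pfkl, Pfkm, Gapdh, Pgk1, Pdk2, Pdk3, Pdk4, Hif1a, Epas1, Arnt, Egln1, Flt1, Kdr, Ufsp2 and 5 other HIF targets) were named after their values were seen. Some listed genes lie in loci with several names and were not analysed here.

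In all 18 alternatives were run: quantile normalization and median-ratio rescaling, a pseudocount of 0.1 or 0.5 FPKM, a minimum of 5 FPKM or none, a factor for the rat number series, a block for the replicate number, a covariate for the proximal tubule score, and each of the 9 libraries left out in turn. Promoter sequences are from RefSeq, build GRCr8, matched by symbol for all 10 genes, with the first entry of each symbol used.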

Additional observations from a re-analysis of the deposited data

How the results depend on the processing

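With 3 rats a group, unknown depth and 1 library apart from the rest, single calls move easily. Of 540 recalculated changes of the 10 genes (30 changes under 18 alternatives), 499 kept their direction and side of the threshold. A further 15 lost the call, 3 gained one and 23 changed sign, none of these 23 called in the main fit. Only 2 of the 30 changes were called in the main fit, Ldha and Ankrd37 between HS_SCR and 0.4% salt. Their calls held in 12 and 9 of the 18 alternatives, and all 15 lost calls were theirs. The cause of these differences was not tested, except that a stricter minimum, no filter or a left-out library alters the loci or samples in the fit.

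Between HS_SCR and 0.4% salt, the 2 genes called became 1 with no filter (Ldha), 1 with the series factor (Vegfa) and 0 after adjustment for the proximal tubule score. Leaving out 1 library gave 0 (each 0.4% salt library and HS_SCR replicate 2) to 3 (HS_SCR replicate 3). Between HS_DT and HS_SCR, the 0 called became 1 (Vegfa) with the series factor. Leaving out a library gave 0 in HS_DT minus HS_SCR and in HS_DT minus 0.4% salt. Genes of glycolysis that rose went from 6 of 25 to 3 of 20 tested with a minimum of 5 FPKM, which leaves Slc16a3, Aldoc and Hk3, 3 of the 6, untested while 11.2% of all loci rose, to 0 with the covariate and to 0 to 12 when a library was left out. Other HIF targets that rose went from 9 to 6 with no filter, to 0 with the covariate and to 2 to 13 when a library was left out. Over all loci, 8.2% rose in the main fit, 4.1% with no filter and 0 with the covariate. With a library left out, 1.81% to 20.5% of all loci rose.

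Sign changes concerned changes that the main fit did not call, and no value with a changed sign passed the test. Hk1 between HS_SCR and 0.4% salt, which changed sign with the series factor, was called by limma without HS_SCR replicate 3 (0.36, adjusted p = 0.0222). With the series factor, HS_SCR minus 0.4% salt was -0.10 for Hk1 and -0.01 for Slc2a1, and HS_DT minus 0.4% salt was 0.20 for Bnip3, -0.24 for Hk1 and -0.24 for Vegfa. With the proximal tubule covariate, HS_SCR minus 0.4% salt was -0.21 for Pfkfb3 and -0.27 for Slc2a1, HS_DT minus HS_SCR was 0.13 for Pfkfb3 and 0.09 for Slc2a1, and HS_DT minus 0.4% salt was 0.04 for Bnip3, -0.02 for Hk1, -0.08 for Pfkfb3 and -0.01 for Vegfa. Quantile normalization gave -0.02 for Hk1 in HS_DT minus 0.4% salt. Leaving out a library gave -0.01 to 0.44 for Bnip3 and -0.05 to 0.39 for Pfkfb3 in HS_SCR minus 0.4% salt, -0.72 to 0.00 for Pdk1 and -0.33 to 0.11 for Pfkfb3 in HS_DT minus HS_SCR, and -0.04 to 0.11 for Hk1, -0.03 to 0.15 for Pfkfb3 and -0.15 to 0.13 for Slc2a1 in HS_DT minus 0.4% salt.

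The labels do not say that replicate numbers pair rats, and residuals of same-numbered libraries correlated over 0.1 in 5 of 9 pairs (-0.0762 to 0.259). For libraries of other numbers, r ran from -0.307 to 0.243. With the replicate block, 2 of the 10 genes were called between HS_SCR and 0.4% salt and 0 in each of the other comparisons. Between HS_SCR and 0.4% salt, 7 glycolysis genes and 6 other HIF targets rose, and gluconeogenesis genes that fell went from 0 to 2. Over all loci, 7.92% rose and 5.37% fell in that comparison with this block, and 0 were called in each of the others.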
